A study of Bos taurus with 23 samples.

Results

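Cattle embryos at the 2-cell and 4-cell stages were compared with oocytes matured in the animal. All samples of these stages were taken from the series by their labels, which gave 7 of its 23 arrays: 3 arrays of in vivo oocytes, 2 of 2-cell embryos and 2 of 4-cell embryos, with both embryo stages pooled as 1 group of 4. The oocytes, aspirated from preovulatory follicles of 9 animals on day 0, the day of standing oestrus, were described as in vivo derived, although another label field calls them cultured. The embryos were flushed from the oviducts of 24 cows 1 to 4 days after insemination with frozen and thawed semen of a single Holstein-Friesian bull, and were washed and frozen in pools of 10. No treatment or genotype separates the groups, and the number of oocytes in a pool and the breed of the donors are not given in the sources used here. Oocyte donors and embryo donors were counted as separate sets of animals, and the site and day of collection differ as well, so donor set, site and stage cannot be told apart. Whether pools of a stage came from different cows is not stated, so the spread between arrays may be technical in part. The p-values rest on the spread within groups over all 23 arrays of the series, not on that of the 7 arrays alone.

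A fully grown oocyte carries a stock of messenger RNA made during its growth, and the first cell divisions run on that stock. Stored messages are held with short poly(A) tails and masking proteins, are recruited to ribosomes when the tail is lengthened, and are removed by deadenylation and decay. In cattle the major activation of the embryo's own genome falls at about the 8-cell to 16-cell stage, so the 2-cell and 4-cell stages show mainly what becomes of the maternal stock, with at most minor transcription. The study measured RNA that had been captured by its poly(A) tail. A level can therefore differ because molecules were lost or made, or because their tails changed length, and these data do not separate the cases. In pools of whole embryos, a lower level can likewise mean fewer cells of a kind or less RNA per cell, which cannot be told apart.

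Levels are log2 values of single-colour Affymetrix arrays, normalised by the authors, so that a difference of 1 is a doubling and every level is relative to the other probes of its array. A probe set is a group of short probes that measures one transcript. Of 24016 probe sets that are not controls, 14571 had a level above 4, about the border of detection here, on at least 2 of the 23 arrays and were tested, and they represent 7081 named genes. A gene with several probe sets is represented by the one whose mean over all arrays is highest. The test was limma's moderated test on all 23 arrays with the 2-cell and 4-cell arrays as 1 group, and a difference passed when its p-value, adjusted by Benjamini and Hochberg over all probe sets, was under 0.05. Where an array of the lower group was under 4, that group's values under 4 were set to 4 and the fold is given as "at least".

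Correlations between arrays over the tested probe sets were 0.914 to 0.978 among the oocytes, 0.964 to 0.990 among the 2- and 4-cell embryos, and 0.891 to 0.943 between the groups. Same-numbered 2-cell and 4-cell arrays correlated at 0.976 (array 1) and 0.990 (array 2). The 2 arrays within a stage correlated at 0.968 (2-cell) and 0.969 (4-cell). The 4 embryo arrays may therefore not be independent of each other, although the test treated them so. Transcripts of other cells stood out most on 3 of the 7 arrays. Oocyte array 2 held granulosa cell transcripts, with 7 of 30 granulosa and cumulus markers more than 2 log2 units above both other oocyte arrays; INHA, the inhibin alpha subunit, read 10.95 there and at most 2.17 on the other 6 arrays. On 2-cell array 1 such an excess over the other 2- and 4-cell arrays was seen for 6 of 15 epithelial markers, among them the secreted protein lactoferrin (LTF) at 13.86, against at most 2.44 elsewhere. CST6, also among the 6, was at 9.39 there but at 8.53, 9.72 and 8.70 on the oocyte arrays, and AREG is on the granulosa and cumulus list too. The 4-cell array 1 had 11 of 21 leukocyte markers in excess, with the phagocyte protein S100A12 at 13.05. Below that array, 2-cell array 1 also held leukocyte transcripts, with S100A12 at 8.06 and CXCL8 at 8.37. There 7 of the 21 markers were above 4, against 2 on 2-cell array 2 and 3 on 4-cell array 2. On oocyte array 1 the excess was smaller, with 2 leukocyte markers (CD3E at 5.13 and CD52 at 8.47) and CD44 of the granulosa list. The summed linear level of the leukocyte markers was 22965 on 4-cell array 1. It was 340 to 1222 on the other 2- and 4-cell arrays and 341 to 5764 on the oocyte arrays. The sum of 5764 was that of oocyte array 2, where 1 leukocyte marker was in excess, SRGN at 12.44. For the epithelial markers the sum ran from 1225 to 2292 on oocyte arrays and from 1231 to 19189 on embryo arrays, and for the granulosa markers from 16189 to 25237 and from 13120 to 16796. The granulosa sum is weighted by STAR, at 12.82 to 13.72 on all 7 arrays, and is no measure of granulosa cells. HSD17B1 of the same list read 11.03 on oocyte array 2 and at most 1.72 on the other 6 arrays. Under 4 on all 7 arrays were 10 of 30 granulosa and cumulus markers, 6 of 15 epithelial, 7 of 21 leukocyte and 8 of 10 sperm and testis markers, among them OVGP1, the oviduct glycoprotein, at 2.39 to 2.44 and the globin HBB at 2.40 to 2.51 on all 7 arrays. A control for RNA integrity, the distance between the 3' and 5' probe sets of actin, was 5.38 on oocyte array 2 and 0.27 to 0.30 on the other 6 arrays. The same distance for GAPDH did not set that array apart, at 3.08 there and 2.90 to 3.44 on the other 6 arrays. The control for elongation factor 1 alpha ran from -0.55 to 0.49 on the oocyte arrays and from -2.40 to -1.02 on the 2- and 4-cell arrays. The part of these transcripts in other results was not tested, and counts are therefore also given without those 3 arrays, which leaves 2 oocyte arrays, 1 2-cell array and 1 4-cell array.

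Between the oocyte and the 2- to 4-cell stage the poly(A) RNA pool shifted in both directions. A total of 3108 probe sets (21.3% of those tested) passed, of which 1745 (12.0%) were higher and 1363 (9.35%) were lower in the embryos. The median size of a rise was 1.64 and that of a fall 1.56 on the log2 scale. At least 2 log2 units separated the groups for 540 rises and 395 falls, and at least 4 units for 35 and 21. Of the probe sets that rose, 238 were under 4 on every oocyte array, and of those that fell, 129 were under 4 on every embryo array. Arrays of the groups did not overlap for 2745 of the 3108, against 4374 (30.0%) of all tested probe sets.

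The number of calls changed with the scaling of the arrays. With each array centred on its median, 1383 probe sets were higher and 1554 lower. With centring on the spike-in control probe sets the calls dropped to 659 and 637. The mean spike-in level was 7.67, 9.21 and 8.69 on the oocyte arrays and 8.11 to 9.06 on the 2- and 4-cell arrays. Spike-in centring therefore also shifts arrays of the same group against each other, and its part in the lost calls was not tested. Median and spike-in centring moved the median difference over all tested genes from -0.01 to -0.14 and -0.09. Without the 3 arrays with most transcripts of other cells 1134 probe sets were higher and 970 lower. All differences are therefore relative to the array as a whole and say nothing of the total amount of messenger RNA.

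**Figure D1:**
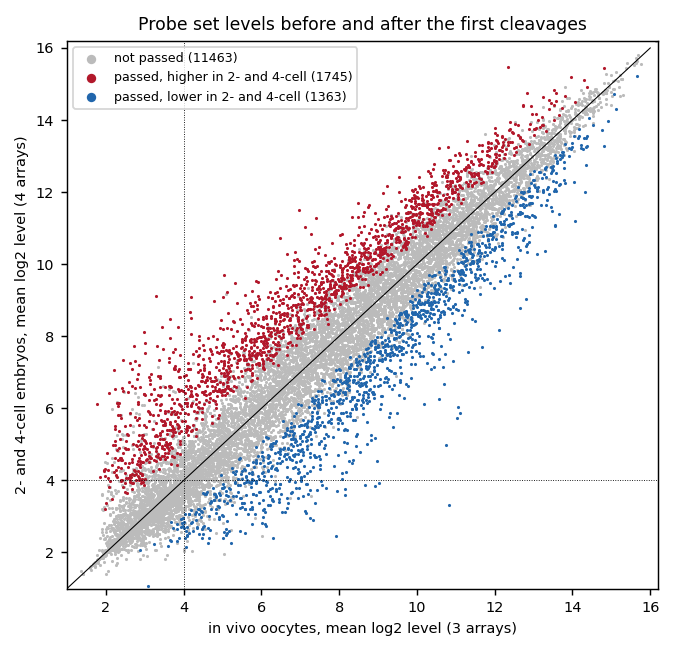
Mean log2 level of each of the 14571 tested probe sets on the 3 in vivo oocyte arrays (horizontal) against the 4 arrays of 2- and 4-cell embryos (vertical); dotted lines mark a level of 4 and the solid line equal levels. The 1745 probe sets that passed as higher in the embryos lie above the solid line and the 1363 that passed as lower lie below it, and a group of each lies beyond a dotted line, where the level of 1 stage is under 4.

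The largest rises, ranked with values under 4 set to 4, included genes of glycan synthesis, splicing and the endoplasmic reticulum. GLCE, the epimerase that converts glucuronic to iduronic acid in heparan sulfate, measured 2.44, 4.28 and 3.19 on the oocyte arrays, 9.22 and 8.48 on the 2-cell arrays and 9.63 and 9.17 on the 4-cell arrays. All 4 embryo arrays lay above all 3 oocyte arrays, at least 32.7-fold higher (5.82 ± 0.44 (SE), adjusted p = 2e-08). SRSF1, a splicing factor of the SR family, read 6.54, 8.05 and 6.31 on the oocyte arrays, 11.43 and 11.56 on the 2-cell arrays and 11.70 and 11.33 on the 4-cell arrays. The embryo arrays agreed closely with each other, and the level was 23.3-fold that of the oocytes (4.54 ± 0.61 (SE), adjusted p = 2.14e-05), although 1 of its 3 probe sets passed in the opposite direction, from 9.11 to 7.82. For GFPT1, which makes the first and rate-limiting step of hexosamine synthesis, the values were 4.39, 7.31 and 4.30 on the oocyte arrays, 9.54 and 9.60 on the 2-cell arrays and 9.27 and 9.53 on the 4-cell arrays. Oocyte array 2 was the highest of the oocyte arrays, still below every embryo array, and the rise was 17.8-fold (4.15 ± 0.59 (SE), adjusted p = 4.17e-05). ST6GAL1 adds terminal sialic acid to glycans, and gave 3.20, 3.81 and 4.56 on the oocyte arrays, 8.11 and 8.06 on the 2-cell arrays and 8.67 and 8.21 on the 4-cell arrays. Its groups were well apart, with a rise of at least 16.9-fold (4.41 ± 0.45 (SE), adjusted p = 9.58e-07). CALR, or calreticulin, a calcium-binding chaperone that holds glycoproteins in the endoplasmic reticulum, was at least 17.5-fold higher (4.21 ± 0.56 (SE), adjusted p = 2.13e-05).

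Others of these 15 genes encode regulatory proteins. PRKCH, protein kinase C eta, measured 3.25, 3.84 and 2.83 on the oocyte arrays, 7.67 and 7.41 on the 2-cell arrays and 7.88 and 8.00 on the 4-cell arrays. None of the oocyte arrays reached 4 and none of the embryo arrays fell below 7, a rise of at least 13.3-fold (4.43 ± 0.27 (SE), adjusted p = 1.43e-09). CCNT2, cyclin T2, a partner of the kinase CDK9 in the factor that releases paused RNA polymerase II, read 3.05, 4.26 and 3.54 on the oocyte arrays, 7.45 and 7.38 on the 2-cell arrays and 7.77 and 6.98 on the 4-cell arrays. It was at least 9.92-fold higher in the embryos (3.78 ± 0.40 (SE), adjusted p = 1.58e-06). DDX21, a nucleolar RNA helicase, had 6.08, 7.40 and 7.13 on the oocyte arrays, 10.13 and 10.17 on the 2-cell arrays and 10.32 and 10.73 on the 4-cell arrays. The rise was 11-fold (3.47 ± 0.30 (SE), adjusted p = 1.1e-07). CTDSPL2, a phosphatase of the family that acts on the tail of RNA polymerase II, rose at least 15.9-fold, STRN, a scaffold of a phosphatase and kinase complex, rose 11.7-fold, and YWHAG, the 14-3-3 gamma adaptor, rose at least 10.3-fold. PANX1, a membrane channel for ATP, rose 12.2-fold, and SYAP1 rose 9.69-fold. The adjusted p-values of these 5 genes lay between 8.34e-07 and 0.000279.

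A pair of the 15 rested on the first array of each embryo stage. GRO1, a chemokine of neutrophil recruitment, read 2.72, 2.74 and 2.73 on the oocyte arrays, 10.42 and 2.92 on the 2-cell arrays and 13.77 and 3.87 on the 4-cell arrays. BOLA-DQB1, a class II histocompatibility gene of antigen-presenting cells, read 2.08, 2.09 and 2.09 on the oocyte arrays, 8.98 and 2.10 on the 2-cell arrays and 12.46 and 2.11 on the 4-cell arrays. Both were high on 2-cell array 1 and 4-cell array 1, the arrays with epithelial and leukocyte markers, and at or close to the oocyte level on the other embryo arrays. Both passed with all arrays (adjusted p = 0.0292 and 0.0494), and without the 3 arrays the differences were 0.67 (adjusted p = 0.651) and 0.02 (adjusted p = 1). The calls of the other 13 genes held in each of the 21 alternative settings.

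The largest fall was that of THOC6, a subunit of the THO complex that couples transcription to messenger RNA export. It measured 11.37, 10.74 and 10.39 on the oocyte arrays, 3.31 and 3.32 on the 2-cell arrays and 3.33 and 3.33 on the 4-cell arrays. The oocyte arrays were all above 10 and the embryo arrays were all at the floor, with almost no spread, at least 114-fold lower (-7.51 ± 0.46 (SE), adjusted p = 1.43e-09). TPM1, tropomyosin 1, an actin-binding protein, gave 10.07, 12.92 and 10.09 on the oocyte arrays, 5.65 and 5.50 on the 2-cell arrays and 6.44 and 5.28 on the 4-cell arrays. Oocyte array 2 was the highest, and the fall was 39.6-fold (-5.31 ± 0.54 (SE), adjusted p = 8.34e-07). HSD11B2, the enzyme that inactivates cortisol to cortisone, had 10.94 to 11.36 on the oocyte arrays, 6.37 and 5.65 on the 2-cell arrays and 5.98 and 5.43 on the 4-cell arrays. Its groups were apart by more than 4 log2 units, and the fall was 37.9-fold (-5.24 ± 0.31 (SE), adjusted p = 1.43e-09). REEP4, which keeps endoplasmic reticulum away from mitotic chromosomes, read 9.38, 8.78 and 8.91 on the oocyte arrays, 5.33 and 2.97 on the 2-cell arrays and 4.41 and 2.98 on the 4-cell arrays. The embryo arrays spread over more than 2 log2 units, all below the oocytes, and the fall was at least 24-fold (-5.10 ± 0.49 (SE), adjusted p = 4.76e-07).

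POMC, the precursor of several peptide hormones, read 12.86, 12.99 and 12.12 on the oocyte arrays, 11.06 and 7.25 on the 2-cell arrays and 9.30 and 7.55 on the 4-cell arrays. The first array of each embryo stage was higher than the second, and all were below the oocytes, 14.6-fold on average (-3.87 ± 0.60 (SE), adjusted p = 0.000114). The polyamine transporter gene ATP13A3 showed the same order of arrays, with 9.91, 11.03 and 11.13 on the oocyte arrays, 8.45 and 5.31 on the 2-cell arrays and 7.19 and 5.79 on the 4-cell arrays. Its mean fall was 16-fold (-4.00 ± 0.71 (SE), adjusted p = 0.0004). LAMB1, the laminin beta 1 chain of basement membranes, fell at least 12.6-fold and SLC52A2, a riboflavin transporter, fell 13.4-fold. APH1A, a subunit of gamma-secretase, fell 11.9-fold, TRAPPC6B, of a complex that tethers transport vesicles, fell 12.2-fold, and MTLN, a mitochondrial micropeptide gene, fell at least 11.4-fold. TMEM168, TEDC2, a partner of tubulins at the centriole, and TOR3A fell at least 27.3-fold, 15-fold and 11.6-fold. The call of every one of the 15 largest falls, CTBP1 among them, held in each of the 21 alternative settings.

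**Figure D2:**
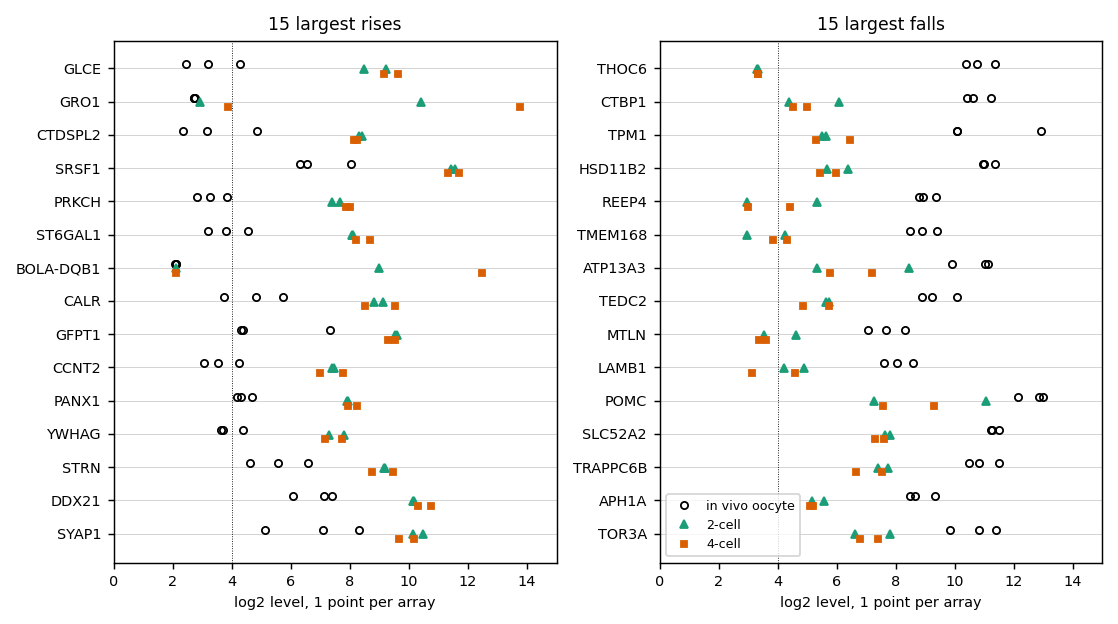
Log2 level on each array for the 15 largest rises and the 15 largest falls by the rule for named genes; circles are the 3 in vivo oocyte arrays, triangles the 2-cell arrays and squares the 4-cell arrays, and the dotted line marks 4. The groups do not overlap for any of the 30 genes, which the rule required, and GRO1 and BOLA-DQB1 are the genes whose embryo arrays spread over more than 10 log2 units.

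Genes were next grouped by process, and a list's count is read against all genes tested, of which 764 (10.8%) were higher and 721 (10.2%) were lower in the embryos, with a median difference of -0.01. Messages for the ribosome itself mostly fell. Of 64 measured genes for cytosolic ribosomal proteins, the structural proteins of the translation machinery, 42 were lower and 1 was higher, with a median difference of -0.81. RPL35 measured 13.25, 12.66 and 12.55 on the oocyte arrays, 11.15 and 9.97 on the 2-cell arrays and 10.49 and 9.80 on the 4-cell arrays. Its oocyte and embryo arrays were more than 1 log2 unit apart, and it fell 5.53-fold (-2.47 ± 0.29 (SE), adjusted p = 6.02e-06). RPL8 gave 11.91, 11.75 and 11.17 on the oocyte arrays, 10.22 and 8.69 on the 2-cell arrays and 9.23 and 8.57 on the 4-cell arrays. The fall was 5.4-fold (-2.43 ± 0.31 (SE), adjusted p = 1.49e-05). RPL30 fell 3.05-fold and RPLP2, a protein of the ribosomal stalk, 4.06-fold. The exception was RPS19, whose highest probe set lay near the floor, at 3.25, 3.34 and 3.34 in oocytes and 4.11, 5.23, 4.95 and 5.46 in embryos (1.62 ± 0.32 (SE), adjusted p = 0.00104). Fewer genes passed as lower in 3 settings, 20 with the 7 arrays alone, 20 with spike-in centring and 23 with the 2-cell arrays alone, while the median was between -0.95 and -0.76 with either centring, without the 3 arrays, or with the mean of each gene's probe sets.

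Oxidative phosphorylation, the mitochondrial respiratory chain and ATP synthase, followed with 34 of 74 genes lower and 1 higher, at a median of -0.74. NDUFC2, a subunit of complex I, read 12.30, 10.81 and 11.11 on the oocyte arrays, 9.77 and 7.76 on the 2-cell arrays and 8.42 and 7.97 on the 4-cell arrays. It fell 7.6-fold (-2.93 ± 0.38 (SE), adjusted p = 1.61e-05), with 2-cell array 1 the highest of the embryo arrays. Complex I was also represented by NDUFA3 (fall of 6.59-fold), NDUFB1 (4.33-fold) and NDUFA4 (2.93-fold). NDUFV2, of complex I too, was the gene that was higher, with 11.05, 10.24 and 10.29 on the oocyte arrays, 11.39 and 11.81 on the 2-cell arrays and 11.92 and 11.66 on the 4-cell arrays (1.17 ± 0.33 (SE), adjusted p = 0.0159); its call ended in 6 of 21 settings, among them the omission of oocyte array 2 or oocyte array 3 and that of the 3 arrays with other cells' transcripts (adjusted p = 0.14). Mitochondrial ribosomal proteins showed 18 of 67 lower and none higher by limma (4 higher at an unadjusted p under 0.05), at a median of -0.30. MRPL22, with the smallest adjusted p of that list, measured 12.72, 11.99 and 12.36 on the oocyte arrays, 9.42 and 10.12 on the 2-cell arrays and 9.60 and 9.70 on the 4-cell arrays. The spread within each group was under 1 log2 unit, and the fall was 6.25-fold (-2.64 ± 0.22 (SE), adjusted p = 7.26e-08). MRPL16 fell 3.15-fold. With spike-in centring 17 respiratory genes and 6 mitochondrial ribosomal genes were lower, with the 7 arrays alone 20 and 11, and the 2-cell arrays alone gave 15 respiratory genes.

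Of 43 measured initiation and elongation factor genes 13 were higher and 6 lower, at a median of 0.33. EIF4B, a cofactor of the cap-binding helicase, measured 9.18, 8.90 and 8.70 on the oocyte arrays, 10.24 and 10.08 on the 2-cell arrays and 10.66 and 10.38 on the 4-cell arrays. ETF1, the release factor that reads stop codons, measured 7.53, 7.23 and 6.86 on the oocyte arrays, 8.35 and 8.23 on the 2-cell arrays and 8.35 and 8.32 on the 4-cell arrays. The rises were 2.66-fold (1.41 ± 0.22 (SE), adjusted p = 0.000121) and 2.16-fold (1.11 ± 0.21 (SE), adjusted p = 0.000757), but with spike-in centring neither passed (adjusted p = 0.0748 and 0.181). Without oocyte array 2 the list had 8 higher and 3 lower genes, without all 3 arrays 8 higher, with the 2-cell arrays alone 7 higher and 2 lower, with the 7 arrays alone 1 lower, and with spike-in centring 1 gene in all, a higher one.

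Of 30 genes that control stored messages, through storage, masking and poly(A) tail control, 9 were higher and 1 lower, at a median of 0.34. YBX1, a main protein of stored messenger particles, read 13.34, 11.99 and 13.16 on the oocyte arrays, 14.66 and 14.81 on the 2-cell arrays and 14.91 and 14.60 on the 4-cell arrays. It was lowest on oocyte array 2, and all embryo arrays were higher, by 3.77-fold on average (1.92 ± 0.26 (SE), adjusted p = 2.39e-05). CPSF2, a subunit of the complex that cuts and directs polyadenylation, read 9.18, 6.80 and 8.82 on the oocyte arrays, 10.60 and 10.65 on the 2-cell arrays and 10.40 and 10.69 on the 4-cell arrays. Oocyte array 2 was again the lowest, and the rise was 4.98-fold (2.32 ± 0.42 (SE), adjusted p = 0.000429). Without the 3 arrays, 5 genes of the list were higher, with the 2-cell arrays alone 5, and with spike-in centring 2.

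Among 54 genes of mRNA decay and deadenylation 13 were higher and 6 lower, at a median of 0.40. LSM6, of the ring that binds shortened tails ahead of decapping, gave 6.80, 7.54 and 6.31 on the oocyte arrays, 8.62 and 9.31 on the 2-cell arrays and 8.67 and 8.90 on the 4-cell arrays. The rise was 3.96-fold (1.99 ± 0.42 (SE), adjusted p = 0.00167). TOB1, which recruits the deadenylase complex, rose 4.45-fold (adjusted p = 0.0012), but without the 3 arrays did not pass (adjusted p = 0.0627). SMG1, a kinase of nonsense-mediated decay, went down, with 8.25, 9.18 and 8.65 on the oocyte arrays, 7.05 and 7.32 on the 2-cell arrays and 5.22 and 6.23 on the 4-cell arrays. The fall was 4.72-fold (-2.24 ± 0.39 (SE), adjusted p = 0.0003). PAN2, the catalytic subunit of an early-acting deadenylase, fell 7.98-fold (adjusted p = 0.00649), although not with the 2-cell arrays alone (adjusted p = 0.0738). The rises of this list were 6 without the 3 arrays, with a median of 0.05, 8 with median centring, 8 with the 2-cell arrays alone and 3 with spike-in centring. Its falls were 2 without oocyte array 3, 2 with spike-in centring and 1 with the 2-cell arrays alone.

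**Figure D3:**
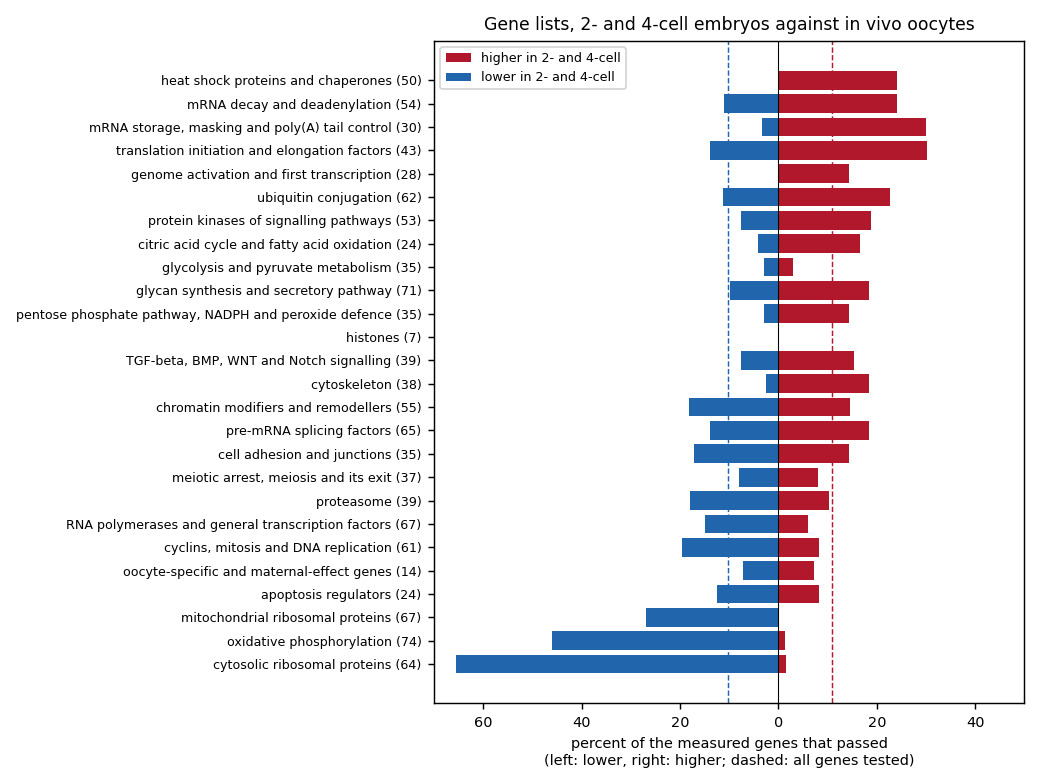
Percent of the measured genes of each list that passed as higher (right, red) or lower (left, blue) in 2- and 4-cell embryos than in in vivo oocytes, ordered by the list's median difference, with the number of measured genes in brackets; dashed lines mark 10.8% and 10.2%, the shares over all 7081 genes. Cytosolic ribosomal proteins (42 of 64), oxidative phosphorylation (34 of 74) and mitochondrial ribosomal proteins (18 of 67) extend farthest to the left.

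Of 14 measured oocyte-specific and maternal-effect genes 1 was higher (7.14%) and 1 lower (7.14%), near the 10.8% and 10.2% of all genes, with a median of -0.15. ZP2, an egg coat protein, read 14.62, 14.36 and 14.51 on the oocyte arrays, 14.46 and 14.66 on the 2-cell arrays and 14.24 and 14.60 on the 4-cell arrays. The groups overlapped (-0.01 ± 0.30 (SE), adjusted p = 1). NLRP5, a maternal-effect gene of the subcortical complex, read 13.45, 9.22 and 12.14 on the oocyte arrays, 12.42 and 12.84 on the 2-cell arrays and 11.93 and 12.45 on the 4-cell arrays. It was lowest on oocyte array 2 and its groups overlapped (0.81 ± 0.66 (SE), adjusted p = 0.468). GDF9, a growth factor that the oocyte secretes, read 13.10, 11.43 and 12.52 on the oocyte arrays, 13.27 and 13.72 on the 2-cell arrays and 13.46 and 13.48 on the 4-cell arrays. Every embryo array was above every oocyte array, but the difference did not pass (1.13 ± 0.41 (SE), adjusted p = 0.0521). It passed without oocyte array 1 (1.51, adjusted p = 0.0157), with the replicate block (adjusted p = 0.0392), when only probe sets above 5 on at least 3 arrays were tested (adjusted p = 0.0476) and with values below 4 set to 4 (adjusted p = 0.0472). Its paralogue BMP15 likewise had 11.76 ± 0.29 in oocytes and 13.60 ± 0.10 in 2- and 4-cell embryos (1.84 ± 0.69 (SE), adjusted p = 0.0643), and passed in the fit of the 7 arrays alone (adjusted p = 0.00153) and with the block (adjusted p = 0.0245). ZP4, OOEP, KPNA7, FBXO15, MSX1, CNOT6L, ZP3 and GTSF1 did not pass either, with differences between -1.25 (ZP3) and 0.01 (ZP4). ZP3, another egg coat protein, passed as lower without oocyte array 2 (-2.44, adjusted p = 0.000281) and without the 3 arrays (-2.40, adjusted p = 0.0025), and GTSF1 without oocyte array 2 (-1.44, adjusted p = 0.0478). KIT, the receptor through which granulosa cells signal to the oocyte, was the gene that was higher (1.39 ± 0.48 (SE), adjusted p = 0.0438), a call that ended in 14 of 21 settings, the omission of any 1 of the 7 arrays among them. UCHL1, a ubiquitin hydrolase of oocytes, was the gene that was lower (-1.55 ± 0.39 (SE), adjusted p = 0.00698), although not with spike-in centring (adjusted p = 0.0793) or with the 2-cell arrays alone (adjusted p = 0.132).

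For the cell cycle, 12 of 61 genes of cyclins, mitosis and DNA replication were lower and 5 higher, at a median of -0.13. ESPL1, separase, the protease that parts sister chromatids, measured 12.18, 12.62 and 12.61 on the oocyte arrays, 10.43 and 9.88 on the 2-cell arrays and 9.50 and 9.81 on the 4-cell arrays. It fell 5.9-fold (-2.56 ± 0.29 (SE), adjusted p = 2.56e-06). MCM7, of the replicative helicase, gave 11.93, 12.22 and 12.39 on the oocyte arrays, 10.76 and 10.58 on the 2-cell arrays and 10.37 and 10.40 on the 4-cell arrays. The fall was 3.14-fold (-1.65 ± 0.23 (SE), adjusted p = 3.98e-05), and RRM1, of ribonucleotide reductase, fell 3.01-fold. CDC7, the kinase that fires replication origins, rose at least 5.83-fold from a level near the border of detection, 3.01, 4.18 and 3.86, to 6.40, 6.50, 6.43 and 7.07 (2.92 ± 0.55 (SE), adjusted p = 0.000601). The falls of this list were 6 without oocyte array 3, with the 2-cell arrays alone and with the 4-cell arrays alone, and 5 with spike-in centring; its rises were 2 without oocyte array 3, 3 without oocyte array 2, with the 3 arrays left out, with the 2-cell arrays alone and with the 4-cell arrays alone, and 1 with spike-in centring.

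Of 55 chromatin genes 8 were higher and 10 lower, at a median of 0.03. DNMT3B, a methyltransferase that sets new DNA methylation, read 2.69, 2.97 and 3.33 on the oocyte arrays, 6.57 and 6.34 on the 2-cell arrays and 5.91 and 6.63 on the 4-cell arrays. No oocyte array reached 4 and every embryo array passed 5, at least 5.15-fold higher (3.37 ± 0.39 (SE), adjusted p = 4.05e-06). CTCF, the insulator protein, read 9.76, 10.10 and 10.55 on the oocyte arrays, 11.67 and 11.56 on the 2-cell arrays and 11.80 and 11.64 on the 4-cell arrays. The rise was 2.89-fold (1.53 ± 0.23 (SE), adjusted p = 6.12e-05). TRIM28, a corepressor of retroelements, fell 4.76-fold, HDAC3, a histone deacetylase, fell 4-fold and KDM3A, a histone H3 demethylase, fell 4.19-fold, at adjusted p-values of 0.000186, 0.000762 and 0.000132. The falls of this list were 6 without oocyte array 2 and 6 without oocyte array 3, and 5 without the 3 arrays, with the 2-cell arrays alone and with spike-in centring. Its rises were 5 with the 2-cell arrays alone and 3 with spike-in centring.

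Of 28 genes listed for genome activation and first transcription 4 were higher and none lower by limma (4 lower at an unadjusted p under 0.05). YY1, a zinc finger transcription factor, measured 9.27, 7.96 and 8.85 on the oocyte arrays, 10.76 and 10.69 on the 2-cell arrays and 10.71 and 10.59 on the 4-cell arrays. It rose 3.99-fold (2.00 ± 0.27 (SE), adjusted p = 2.19e-05). KLF4, a transcription factor of pluripotency, measured 10.57, 10.43 and 10.15 on the oocyte arrays, 12.81 and 11.23 on the 2-cell arrays and 12.70 and 11.86 on the 4-cell arrays. The first array of each embryo stage, those with other cells' transcripts, was the higher, and the rise was 3.41-fold (1.77 ± 0.28 (SE), adjusted p = 0.000115). Among 67 RNA polymerase subunits and general transcription factors 4 were higher and 10 lower. POLR2L, a small subunit shared by the RNA polymerases, fell 11-fold (-3.46 ± 0.45 (SE), adjusted p = 1.53e-05) and TAF9B, of factor TFIID, at least 5-fold (-2.47 ± 0.35 (SE), adjusted p = 4.32e-05). Genome activation genes higher were 2 without the 3 arrays and 2 with the 2-cell arrays alone. The polymerase list had 11 higher without oocyte array 1, 2 without oocyte array 3, 2 with the 2-cell arrays alone and 1 with spike-in centring; 6 were lower without the 3 arrays and with either embryo stage alone, and 4 with spike-in centring.

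Of 50 heat shock proteins and chaperones 12 were higher and none lower by limma (0 lower at an unadjusted p under 0.05), at a median of 0.61. CCT2, of the ring that folds actin and tubulin, read 13.38, 12.54 and 12.92 on the oocyte arrays, 14.29 and 14.62 on the 2-cell arrays and 14.34 and 14.35 on the 4-cell arrays. The rise was 2.74-fold (1.45 ± 0.20 (SE), adjusted p = 3.53e-05). BAG4, a cochaperone of HSP70, was 5.32-fold higher (2.41 ± 0.40 (SE), adjusted p = 0.000183), with 4-cell array 1 at 8.06 and the other embryo arrays at 6.27, 5.95 and 6.11. HSP90AA1, the inducible HSP90, rose 2.63-fold (adjusted p = 0.000201), and with spike-in centring had an adjusted p = 0.0733. The heat shock gene HSPA1A had probe sets that passed in both directions, among them 1.47 (adjusted p = 0.0179) and -1.33 (adjusted p = 0.00057). Its call as higher ended in 7 of 21 settings. The count of this list moved with single arrays, with 21 higher without oocyte array 1, 6 without the 3 arrays (median 0.28), 7 with the 2-cell arrays alone and 3 with spike-in centring.

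Ubiquitin conjugation had 14 of 62 genes higher and 7 lower, at a median of 0.23. USP8, a deubiquitinase of endosomes, gave 11.28, 10.49 and 10.74 on the oocyte arrays, 12.72 and 12.84 on the 2-cell arrays and 12.84 and 13.13 on the 4-cell arrays. It rose 4.12-fold (2.04 ± 0.26 (SE), adjusted p = 1.49e-05). USP16, which removes ubiquitin from histone H2A, rose 3.86-fold and UBA2, of the SUMO-activating enzyme, 2.49-fold. CUL1, the scaffold of SCF ligases, went the other way, at 7.82, 8.56 and 8.18 on the oocyte arrays, 6.08 and 5.91 on the 2-cell arrays and 5.29 and 5.85 on the 4-cell arrays. The fall was 5.3-fold (-2.41 ± 0.31 (SE), adjusted p = 1.49e-05), and UBE2T, a conjugating enzyme of DNA repair, fell 6.11-fold. Rises were 9 without oocyte array 3, 8 without the 3 arrays, 8 with the 2-cell arrays alone and 5 with spike-in centring, and falls were 3 with the 2-cell arrays alone and 2 with spike-in centring.

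Of 39 genes of TGF-beta, BMP, WNT and Notch signalling 6 were higher (15.4%) and 3 lower (7.69%), near the 10.8% and 10.2% of all genes. When all probe sets of a gene were averaged, 10 were higher. Single receptors of the TGF-beta family differed in both directions. TGFBR1, the type I receptor for TGF-beta, read 2.34, 2.21 and 2.18 on the oocyte arrays, 6.29 and 7.15 on the 2-cell arrays and 6.21 and 6.55 on the 4-cell arrays. It was at the floor in oocytes and at least 5.86-fold higher in embryos (4.31 ± 0.40 (SE), adjusted p = 2.56e-07). BMPR1B, a type I BMP receptor, read 2.41, 2.21 and 2.32 on the oocyte arrays, 4.75 and 6.26 on the 2-cell arrays and 6.51 and 6.71 on the 4-cell arrays. Here 2-cell array 1 was the lowest embryo array, and the rise was at least 4.17-fold (3.75 ± 0.46 (SE), adjusted p = 8.31e-06). The type II receptors BMPR2 and ACVR2A rose at least 5.68-fold and at least 3.49-fold. ACVR1, a type I receptor for activins and BMPs, fell instead, with 11.98, 12.61 and 12.21 on the oocyte arrays, 9.71 and 10.07 on the 2-cell arrays and 9.04 and 9.81 on the 4-cell arrays. The fall was 6.11-fold (-2.61 ± 0.30 (SE), adjusted p = 4.61e-06). SMAD5 and TGFBR2 were lower as well, but lost the call in 8 and 12 of 21 settings. Spike-in centring and the omission of the 3 arrays with other cells' transcripts were among these settings for both.

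Of 53 signalling kinases 10 were higher and 4 lower. PIK3CA, the catalytic subunit of phosphatidylinositol 3-kinase alpha, measured 6.45, 7.83 and 6.59 on the oocyte arrays, 9.84 and 10.09 on the 2-cell arrays and 10.23 and 10.16 on the 4-cell arrays. The rise was 8.7-fold (3.12 ± 0.41 (SE), adjusted p = 2e-05). LATS1, a kinase of the Hippo pathway, rose at least 6.03-fold and the SRC-type kinase LYN at least 5.45-fold (2.93 ± 0.34 (SE), adjusted p = 4.86e-06). MAPKAPK5, a kinase downstream of MAP kinases, fell 6.78-fold (-2.76 ± 0.37 (SE), adjusted p = 1.99e-05), with 4-cell array 1 the lowest at 6.98. Kinases higher were 6 with spike-in centring and 6 with the 2-cell arrays alone; kinases lower were 7 without oocyte array 1, 2 with the 2-cell arrays alone and 1 with spike-in centring.

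Of 35 adhesion and junction genes 5 were higher and 6 lower, and 24 did not pass. TJP1, the tight junction scaffold ZO-1, read 3.11, 3.17 and 3.20 on the oocyte arrays, 6.81 and 6.80 on the 2-cell arrays and 7.19 and 6.99 on the 4-cell arrays. Oocytes were at the floor with almost no spread, and the rise was at least 7.72-fold (3.79 ± 0.23 (SE), adjusted p = 1.43e-09). CLDN1, a tight junction claudin, rose 4.81-fold. ITGB1, the integrin beta 1 chain, read 14.22, 14.29 and 14.44 on the oocyte arrays, 12.62 and 11.77 on the 2-cell arrays and 11.89 and 11.67 on the 4-cell arrays. The fall was 5.03-fold (-2.33 ± 0.20 (SE), adjusted p = 1.1e-07), and MSN, moesin, which ties membranes to actin, fell 3.52-fold. Rises of this list were 3 without the 3 arrays and with spike-in centring, and falls were 3 with the 2-cell arrays alone and 2 with spike-in centring. In glycan synthesis and the secretory pathway 13 of 71 genes were higher and 7 lower. FUT8, which adds core fucose to N-glycans, read 2.77, 2.49 and 2.72 on the oocyte arrays, 7.13 and 6.53 on the 2-cell arrays and 6.25 and 6.57 on the 4-cell arrays. The rise was at least 6.15-fold (3.96 ± 0.45 (SE), adjusted p = 3.61e-06), and STT3B, the catalytic subunit of an oligosaccharyltransferase, rose 3.4-fold. Rises were 8 with the 2-cell arrays alone and 5 with spike-in centring; falls were 3 without oocyte array 2, without oocyte array 3 and without the 3 arrays, 4 without 4-cell array 2, 3 with the 4-cell arrays alone, 2 with the 2-cell arrays alone and 1 with spike-in centring.

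The levels at other stages place these changes in time, with the oocyte and embryo values the ones that chose the sets, given here without a test. The median level of the 1745 probe sets that rose was 6.92 in in vitro oocytes, 7.02 in in vivo oocytes, 8.03 in zygotes, 8.94 at the 2-cell and 9.04 at the 4-cell stage, then 7.60 at the 8-cell and 6.37 at the morula stage. For the 1363 that fell it was 9.32, 9.05, 8.67, 7.42 and 7.08, then 7.73 and 8.50. On all 4 arrays of the 8-cell stage 17.4% of the risers and 16.6% of the fallers were under 4, against 15.4% of all tested probe sets. Zygote means of all 30 leading genes lay between the oocyte and embryo means.

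Some genes that rose were back at the floor by the 8-cell stage. GLCE measured 7.01 ± 0.65 (SD, n = 3) in zygotes and 2.91 ± 0.73 (SD, n = 4) at the 8-cell stage, PRKCH 6.47 ± 0.35 and 2.73 ± 0.10, DNMT3B 5.10 ± 0.86 and 1.96 ± 0.71, and TGFBR1 3.43 ± 1.25 and 2.32 ± 0.24. DDX21 and KLF4 were higher still at the 8-cell stage, at 12.31 ± 0.25 and 14.73 ± 0.19. HSD11B2 was 10.17 ± 0.62 in zygotes and a mean of 3.0 at the 8-cell stage, under the border of detection. POMC and RPL8, which had fallen, were at 14.35 ± 0.21 and 13.56 ± 0.27 at the 8-cell stage, above all 3 oocyte arrays. The median of the 64 cytosolic ribosomal protein genes was 12.58 to 13.07 on the in vivo oocyte arrays, 12.06 to 12.33 on the in vitro oocyte arrays, 11.28 to 12.00 on zygote arrays, 11.48 to 12.34 on the 2- and 4-cell arrays and 14.22 to 14.63 on the 8-cell arrays. For the 74 respiratory genes it was 10.42 to 11.24 on in vivo oocyte arrays, 9.77 to 10.02 on in vitro oocyte arrays and 9.88 to 10.36 on zygote arrays. It was 9.81 to 10.28 on 2- and 4-cell arrays and 10.96 to 11.19 on 8-cell arrays. Median differences of zygotes from in vivo oocytes were -0.76 (cytosolic ribosomal), -0.66 (respiratory) and -0.53 (mitochondrial ribosomal). Those of 2- and 4-cell embryos from zygotes were 0.04, 0.16 and 0.21, so these lists were already lower in zygotes. The 8-cell arrays had distances of 2.81 to 4.33 between the actin 3' and 5' controls.

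**Figure D4:**
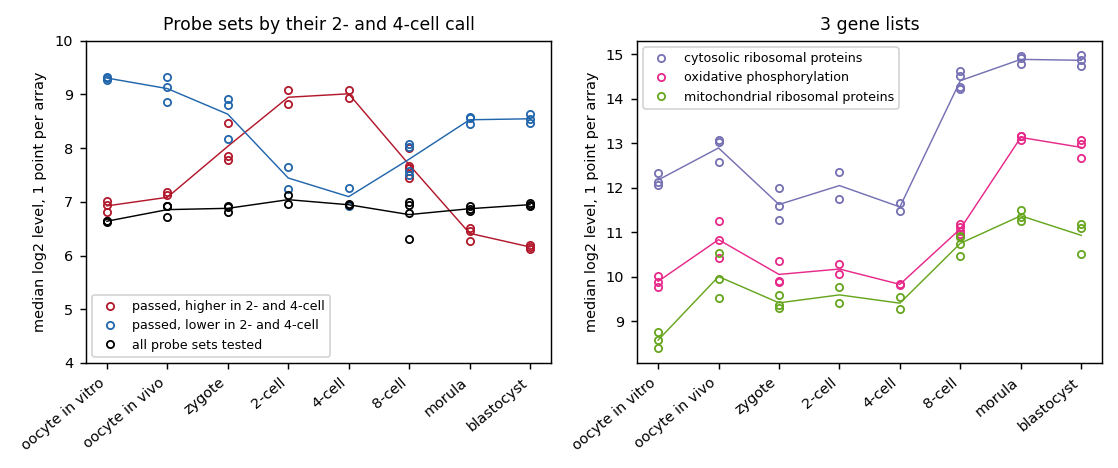
Median log2 level on each array, 1 point per array with a line through the stage means, for all 8 groups of the series. Left, the probe sets that passed as higher (1745) or lower (1363) in 2- and 4-cell embryos and all 14571 tested; right, cytosolic ribosomal proteins (64 genes), oxidative phosphorylation (74) and mitochondrial ribosomal proteins (67). The risers peak and the fallers dip at the 2-cell and 4-cell stages, which chose them, and the cytosolic ribosomal list is higher on every 8-cell array than on any array of an earlier stage.

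The zygote, with 3 arrays of pooled fertilised eggs, lies between the stages compared. Between oocyte and zygote 457 probe sets (3.14%) passed, and between zygote and the 2- to 4-cell stage 1681 (11.5%); the comparisons share the zygote arrays, and the first shares the oocytes with the main one. GLCE differed at both steps, by 3.71 from oocyte to zygote (adjusted p = 0.000113) and by 2.11 from there (adjusted p = 0.00422). NDUFA3 differed at the first, by -2.74 (adjusted p = 0.000113), with a second step of 0.02 (adjusted p = 0.999). ESPL1 and LYN differed at the second, by -2.43 (adjusted p = 2.14e-05) and 3.19 (adjusted p = 7.95e-06), with first steps of -0.13 (adjusted p = 1) and -0.25 (adjusted p = 1). Both counts moved with single arrays. The first was 239 without oocyte array 1, 1176 without oocyte array 2 and 287 without zygote array 2, and the second was 562 without zygote array 1, 611 without zygote array 2 and 1033 without 4-cell array 1.

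Between the 2-cell and the 4-cell stage 2 probe sets passed (0.0137% of those tested), with 292 at an unadjusted p under 0.05, from 2 arrays of each stage. SUPT4H1, a transcription elongation factor, was under 4 on all oocyte arrays (1.96, 3.04 and 2.08) and both 2-cell arrays (2.56 and 2.07), and measured 7.50 and 4.89 on the 4-cell arrays. The 4-cell level was 3.88 higher than the 2-cell level (adjusted p = 0.0316), and the 8-cell mean was 12.29. ZFP36L1, an RNA-binding protein of AU-rich element decay, had a probe set at 4.57 and 5.17 on the 2-cell arrays and 2.93 and 3.38 on the 4-cell arrays, a difference of -1.71 (adjusted p = 0.0316). Neither passed with median or spike-in centring, where 0 probe sets passed (237 and 272 at an unadjusted p under 0.05). With the replicate number as a block 0 passed (308 at an unadjusted p under 0.05), a setting added after seeing the data. Without 1 array, where the spread comes from the other groups because 1 stage then has a single array, the count was 0 (2-cell array 1 or 4-cell array 1 left out), 43 (2-cell array 2) or 84 (4-cell array 2).

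Several genes had probe sets that moved apart. Of 1591 genes with at least 2 tested probe sets, 229 had 2 or more that passed, and in 34 of these some probe sets were higher and others lower in the embryos; the examples were chosen after their values were seen. CTBP1, a transcriptional corepressor and one of the largest falls, measured 10.42, 11.23 and 10.60 on the oocyte arrays, 6.08 and 4.39 on the 2-cell arrays and 5.00 and 4.50 on the 4-cell arrays by 1 probe set, a fall of 54-fold (-5.75 ± 0.47 (SE), adjusted p = 5.37e-08). By its other probe set it measured 1.75, 1.78 and 1.78 on the oocyte arrays, 6.99 and 5.56 on the 2-cell arrays and 6.03 and 5.89 on the 4-cell arrays, a rise of at least 4.33-fold (4.34 ± 0.35 (SE), adjusted p = 5.67e-08). For neither did the arrays of the groups overlap. POLR2A, the largest subunit of RNA polymerase II, fell 3.88-fold by 1 probe set (-1.95 ± 0.34 (SE), adjusted p = 0.000315) and rose at least 4.22-fold by the other (2.68 ± 0.28 (SE), adjusted p = 1.04e-06). LGR4, a receptor for R-spondins, fell 4.26-fold (-2.09 ± 0.45 (SE), adjusted p = 0.0021) and rose at least 9.13-fold (3.20 ± 0.51 (SE), adjusted p = 0.000131), and USP28, a deubiquitinase, fell 1.89-fold (-0.92 ± 0.27 (SE), adjusted p = 0.018) and rose at least 8.46-fold (4.42 ± 0.32 (SE), adjusted p = 1.17e-08). RPA2, of the complex that binds single-stranded DNA, fell 6.14-fold (-2.62 ± 0.47 (SE), adjusted p = 0.000412) and rose 4.79-fold (2.26 ± 0.59 (SE), adjusted p = 0.00885). Where on the transcript each probe set lies was not analysed here, so a direction given for these genes holds for the probe set and not for the gene.

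**Figure D5:**
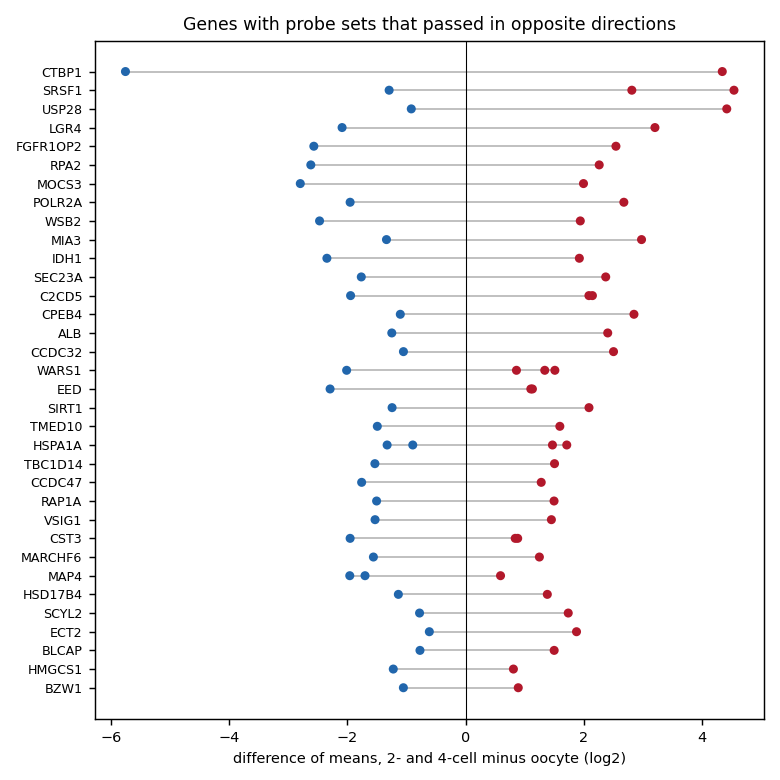
Difference of mean log2 level, 2- and 4-cell embryos minus in vivo oocytes, for the probe sets that passed in each of the 34 genes with passing probe sets on both sides of 0; each point is 1 probe set (red higher, blue lower in the embryos), and a line joins those of a gene. CTBP1 has the widest gap, from -5.76 to 4.34.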

How the data were processed

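Poly(A) RNA of 23 pools in 8 groups was labelled and hybridised to 1 Affymetrix array each, per the labels' protocols. The deposited values are log2 intensities that the authors made with GCRMA 2.0.0, per the submitters' processing notes; GCRMA subtracts background by a sequence model, so values near the floor have little order, and quantile normalisation makes every level relative. Array annotation gave 13292 of 24128 probe sets 1 gene symbol, 86 several and 10638 none; only the first were named. Promoter and protein sequences were not used here.

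All statistics were computed from these values in R 4.3.3 with limma 3.58.1 (7 group means, 16 residual degrees of freedom, eBayes with a trend), and 8 group means for the 4-cell against 2-cell comparison and the stages alone. The script was tested on simulated data. With 3 and 4 arrays, array number limits precision. Named were the 15 largest rises and falls among passing genes with no overlap and a mean above 6 in the higher group, up to 4 genes per list and direction by smallest adjusted p, all oocyte-specific genes, and genes that differed between 2-cell and 4-cell; the text takes its examples from these, mostly ones that passed in every alternative. Members, lists and tests were chosen with earlier results of these data known. Replicate numbers were not taken to pair arrays: no label says so, and same-numbered oocyte and embryo arrays deviated with correlations of -0.15 to 0.04. Same-numbered 2-cell and 4-cell arrays correlated at 0.491, 1 value only, since the deviations of 2 arrays mirror each other. A shared origin of same-numbered embryo arrays therefore remains possible, and the main fit did not model it. Alternatives covered the fit, filter, centring, floor, block, stage and each array left out; those leaving out single arrays in the zygote comparisons, and the block for 4-cell against 2-cell, were added after seeing the data.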

Additional observations from a re-analysis of the deposited data

Results flagged for a closer look

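Of 122 sets of 4 arrays examined, 13 held an array that stood apart by Dixon's test, which chance gives in about 1 of 20. On 4-cell array 1, RPA2 (5.43, other 2- and 4-cell arrays 7.72 to 7.95), MAPKAPK5 (6.98, others 8.39 to 8.43) and TEDC2 (4.86, others 5.65 to 5.72) were low, and BAG4 (8.06, others 5.95 to 6.27) and the summed leukocyte markers (22965, others 340 to 1222) were high. On 2-cell array 1, RPLP2 (11.06, others 9.81 to 9.93) and POLR2L (5.85, others 4.58 to 4.79) were high. On 2-cell array 2, CCT2 (14.62, others 14.29 to 14.35) and KIT (12.62, others 12.15 to 12.19) were high. On 4-cell array 2, PANX1 (8.24, others 7.89 to 7.95) and CDC7 (7.07, others 6.40 to 6.50) were high. Of the 8-cell arrays, array 2 was high for DNMT3B (3.03, others 1.60 to 1.63) and array 4 for TGFBR1 (2.67, others 2.17 to 2.23), all under the border of detection. Apart from the marker sum, which had no test of its own, and KIT, the genes flagged on 2- and 4-cell arrays kept their call without the array concerned.

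The embryo stages differed from each other in the test of that difference for SUPT4H1, by 3.88 (4-cell minus 2-cell), and for 1 probe set of ZFP36L1, by -1.71.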

How the results depend on the processing

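The 3108 calls between in vivo oocytes and 2- and 4-cell embryos came to 2292 to 3468 with single arrays left out (1341 to 1934 higher, 951 to 1534 lower). The counts moved by over 1.5 times with spike-in centring, to 1296 (659 higher, 637 lower), with the 2-cell arrays alone, to 1664 (1006 higher, 658 lower), and, for rises, without the 3 arrays with most transcripts of other cells, to 1134. Under the other settings the total was 2104 to 3410. With the replicate number as a block 3410 probe sets passed (1957 higher, 1453 lower); arrays that share a number are not stated to be paired, and same-numbered arrays of the oocytes and the 2-cell embryos correlated at -0.14 and -0.15 in their deviations, those of the 2-cell and 4-cell embryos at 0.491. Oocyte against zygote gave 239 to 1176 calls and zygote against 2- and 4-cell embryos 562 to 2438 with single arrays left out. For 4-cell against 2-cell this range was 0 to 84, with 0 under median centring (237 at an unadjusted p under 0.05) 0 under spike-in centring (272) and 0 with the replicate block (308); limma was the tool throughout. Of 174 named genes that passed, 92 kept the call in every setting run, 82 lost it in at least 1 (75 with spike-in centring) and 0 changed sign. The causes were not tested. Depth does not apply to arrays; levels under 4 carry only bounds, and with 3 and 4 arrays a difference that did not pass is not shown to be absent.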

Other observations

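Among 65 pre-mRNA splicing factors 12 were higher and 9 lower in the 2- and 4-cell embryos than in the oocytes, at a median difference of 0.01. The core factors SF3B1, of the branch point complex, and PRPF8, at the centre of the spliceosome, fell 2.70-fold (adjusted p = 2.19e-05) and 2.84-fold (adjusted p = 0.000204). The lower genes of the list were 5 without 4-cell array 2 and with the 2-cell arrays alone, and with spike-in centring 1 gene was higher and 3 lower. Of 39 proteasome genes 4 were higher and 7 lower; PSMD1, a subunit of the regulatory particle, rose 2.99-fold (adjusted p = 3.88e-05). Leaving out oocyte array 2, oocyte array 3, 2-cell array 2 or 4-cell array 2 left 2 higher, and leaving out either 4-cell array left 4 lower.

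Of 35 genes of glycolysis and pyruvate metabolism 1 was higher and 1 lower, against 10.8% and 10.2% of all genes tested. Of 35 genes of the pentose phosphate pathway and peroxide defence 5 were higher and 1 lower, among them GCLC, the rate-limiting enzyme of glutathione synthesis, with a rise of 6.73-fold (adjusted p = 2.47e-05). Of 24 genes of the citric acid cycle and fatty acid oxidation 4 were higher and 1 lower, with 7 higher without oocyte array 1, 2 without 2-cell array 1 or without 4-cell array 2, and 1 with any other of the 7 arrays left out. Of 24 apoptosis regulators 2 were higher and 3 lower, with XIAP, a caspase inhibitor, 5.83-fold higher (adjusted p = 0.000219), APAF1, which forms the apoptosome, at least 3.10-fold higher (adjusted p = 4.72e-05) and BIRC6 4.31-fold lower (adjusted p = 0.000965). Of 38 cytoskeletal genes 7 were higher and 1 lower, and of 37 meiosis genes 3 were higher and 3 lower. None of the 7 measured histone genes passed limma's test (0 at an unadjusted p under 0.05).

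Marker lists of other cells gave 2 of 21 cumulus and granulosa genes lower (VCAN and COL4A1), 1 of 11 epithelial genes lower (CST6), 1 of 8 leukocyte genes higher (S100A12) and 1 of 3 sperm genes lower (AKAP4). Their medians were -0.21, 0.80, 1.48 and -0.11, and without the 3 arrays that carry such transcripts 0.01, 0.01, 0.01 and -0.30.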
